A study of Mus musculus with 8 samples.

Results

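The 92 cytosolic ribosomal protein genes and paralogs described here were the rows whose symbol begins with Rpl or Rps and a digit, or is Rplp0, Rplp1, Rplp2 or Rpsa. Symbols that contain -ps, which mark pseudogenes, and those that begin with Rps6k, which name kinases, were left out. They are 92 of the 26229 rows of the authors' deposited table. The members comprised 77 core genes (46 of the large, 60S, subunit and 31 of the small, 40S, subunit), 14 paralogs or copies of core genes, and Rps19bp1, which the symbol rule brought in although it encodes a protein that binds ribosomal protein S19 and is no subunit. RNA-seq of polyadenylated RNA was done on primary cortical neurons taken from mouse embryos at E16.5 and grown for 12 days. There were 4 wild-type (WT) libraries and 4 libraries of H2BE-KO neurons with an mCherry knock-in (H2BE-KO/mCherry-KI), in which the histone variant gene H2bc21 is knocked out. The labels call the libraries biological replicates and state neither the strain nor the sex of the embryos nor which embryos were pooled. Such cultures can hold glia and other cells beside neurons.

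The ribosome joins amino acids into protein. Its large subunit forms the peptide bond and sends the new chain out through the exit tunnel, while its small subunit reads the messenger RNA. Each subunit needs its proteins in near equal number, and most are encoded by a single active gene with many processed pseudogenes. In mammals their messenger RNAs usually start with a run of pyrimidines, the TOP element, through which the kinase complex mTORC1 controls their translation. Some have a paralog that can take the place of the core protein in certain tissues: Rpl3l in heart and skeletal muscle, and Rpl39l in male germ cells.

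The values are those of the authors' DESeq2 comparison: a mean normalized count over all 8 libraries, a log2 fold change with its standard error (SE), a Wald p and an adjusted p. Values for single libraries were not analysed here, so neither the spread between libraries nor the overlap of the genotypes can be given. Counts given for each genotype are those that the deposited mean count and fold change imply for groups of equal size. The header does not name the direction. It was read from H2bc21, which was 3.45 lower on the log2 scale in the knockout when so read (-3.45, SE 0.19, DESeq2 adjusted p = 4.49e-68, mean count 1109). A gene is called lower or higher at a deposited adjusted p under 0.05. In bulk RNA, fewer cells of a type and less RNA per cell cannot be told apart.

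Of the 92 members, 89 had an adjusted p in the authors' deposited table. Of these 89, 2 fell in the knockout, the paralogs Rpl39l and Rpl3l, and 0 rose. Over all 18085 tested genes, 21.8% were called in either direction, 10.9% lower and 11% higher. At an unadjusted DESeq2 p under 0.05, 9 members were lower and 0 were higher. Over all 18085 tested genes these counts were 3063 and 2907. None of the 77 core genes was called in either direction by DESeq2 (0 lower, 0 higher), and at an unadjusted p under 0.05 the count was 4 lower and 0 higher. Among the 6808 tested genes with a mean count of at least 1000, where 76 of the 77 core genes lie, 30.6% were called. Of these 6808 genes, 1511 were lower and 1455 higher at an unadjusted DESeq2 p under 0.05. The core genes were nonetheless mostly on the same side of 0: 73 of 77 (94.8%) had a negative log2 fold change, with a median of -0.28, against 52.2% and a median of -0.02 over all tested genes. These fold changes come from the same 8 libraries and are not independent of each other, so the count of signs is a description. The core genes were also shorter, with a median exon length of 1781 bases against 3892 over all tested genes. Among 2578 tested genes of exon length up to 1500 bases the median log2 fold change was -0.25. For the 24 core genes within them it was -0.34.

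The sequences of the genes that carry these findings are shown first. Rpl39l, one of the called paralogs, differs from its core gene Rpl39 at 23 of 156 coding bases (85.3% identity). Both encode the small basic protein of the exit tunnel. Rpl39l lies at chr16:10170226-10174911 on the + strand and Rpl39 at chrX:37082520-37085402 on the - strand (GRCm38, GENCODE M21 annotation). Their coding sequences follow, with the bases that differ in capitals.

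Rpl39l: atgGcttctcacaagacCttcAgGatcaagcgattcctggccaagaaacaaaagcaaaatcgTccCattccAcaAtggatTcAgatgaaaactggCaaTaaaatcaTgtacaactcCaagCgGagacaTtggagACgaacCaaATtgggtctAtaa

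Rpl39: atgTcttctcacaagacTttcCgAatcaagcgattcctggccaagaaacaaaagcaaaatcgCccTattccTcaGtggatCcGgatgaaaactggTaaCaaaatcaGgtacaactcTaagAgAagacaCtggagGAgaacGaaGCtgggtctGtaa

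Rps27l and its core gene Rps27, which encode the zinc finger protein of the small subunit, are shown for contrast, since their fold changes were nearly the same. They share 194 of 255 coding bases (76.1% identity). Rps27l lies at chr9:66946086-66949516 on the + strand and Rps27 at chr3:90212522-90213651 on the - strand, and capitals again mark the bases that differ.

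Rps27l: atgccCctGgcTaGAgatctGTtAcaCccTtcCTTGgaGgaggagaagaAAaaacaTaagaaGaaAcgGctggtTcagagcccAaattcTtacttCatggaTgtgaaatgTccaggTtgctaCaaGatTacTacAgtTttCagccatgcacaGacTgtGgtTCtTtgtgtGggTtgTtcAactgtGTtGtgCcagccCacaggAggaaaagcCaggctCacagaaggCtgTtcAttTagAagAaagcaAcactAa

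Rps27: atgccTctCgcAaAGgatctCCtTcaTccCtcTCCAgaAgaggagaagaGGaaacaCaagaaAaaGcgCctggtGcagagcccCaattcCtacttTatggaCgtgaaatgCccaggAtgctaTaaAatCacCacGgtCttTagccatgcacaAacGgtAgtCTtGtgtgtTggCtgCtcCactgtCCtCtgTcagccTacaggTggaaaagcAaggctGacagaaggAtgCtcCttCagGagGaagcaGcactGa

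In the Rpl39 pair most of the differing bases lie in the later part of the coding sequence, after a long identical stretch. A read within that stretch cannot be told apart by its letters, while reads of the later part hold some differing bases. The 156 coding bases are only part of the transcripts (805 bases for Rpl39l and 612 for Rpl39), and the rest was not compared. The coding sequence of Rps27rt, an intronless copy of Rps27, matched that of Rps27 at 255 of 255 bases, so reads from those parts of these genes cannot be told apart by their coding sequence, and the count of Rps27rt is uncertain. How reads with several matches were counted is not given in the sources used here.

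Rpl39l had a mean normalized count of 19.0, which implies 32.5 in WT and 5.44 in the knockout. Its log2 fold change in the authors' deposited table was -2.58 (SE 0.74, 95% interval -4.02 to -1.14, DESeq2 adjusted p = 0.00412), so that its level in the knockout was 16.7% of that in WT. Rpl3l, the muscle form of the protein next to the peptidyl transferase centre, lies at chr17:24727820-24736143 on the + strand. Its mean count was 14.7, which implies 24.7 in WT and 4.76 in the knockout. Its log2 fold change was -2.38 (SE 0.78, 95% interval -3.90 to -0.86, DESeq2 adjusted p = 0.0143), or 19.3% of the WT level. Both paralogs were scarce beside their core genes. Rpl39l made up 0.463% of the summed mean count of the Rpl39 pair, and Rpl3l made up 0.117% of that of the Rpl3 pair. Both calls ended when the Wald statistic was referred to a t distribution with 6 degrees of freedom, with adjusted p = 0.115 for Rpl39l and 0.145 for Rpl3l.

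The difference between a paralog and its core gene was taken from the deposited fold changes, with a 95% interval whose SE is the sum of the SEs, a width that holds at any correlation between the genes. Of 11 pairs with both genes tested, 1 interval excluded 0. This was Rpl3l minus Rpl3, at -2.24 (interval -3.98 to -0.50). Rpl3 itself, with a mean count of 12632, had a log2 fold change of -0.14 (SE 0.11). For Rpl39l minus Rpl39 the difference was -1.79 (interval -4.25 to 0.67), because the estimate for Rpl39 was both the lowest of the core genes and the least precise (-0.79, SE 0.52, DESeq2 adjusted p = 0.289). If the errors of these genes were independent, the interval would run from -3.55 to -0.03. By the wider interval, Rpl39l was not shown to differ from Rpl39.

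**Figure D1:**
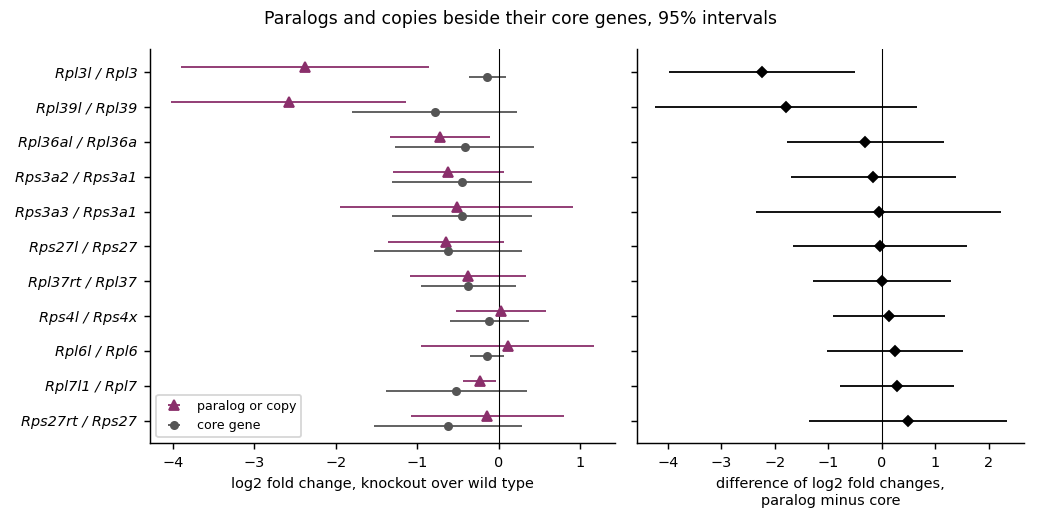
Log2 fold change, knockout over WT, of 11 paralogs or copies (triangles) and their core genes (circles) on the left, and the paralog minus core difference on the right, with 95% intervals (on the right from the summed SEs). Rpl3l and Rpl39l lie furthest left, and in the right panel the interval of Rpl3l alone excludes 0.

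The other tested paralogs had estimates from -0.72 to 0.11 and none was called. Rpl36al, a copy of the X-linked Rpl36a with a mean count of 2105, had a log2 fold change of -0.72 (SE 0.31, unadjusted p = 0.0209, DESeq2 adjusted p = 0.0806). It supplied 41.8% of the summed mean count of its pair, and 332 of its 1353 exon bases overlap another annotated gene on the same strand, Gm49383. Rpl36a stood at -0.42 (SE 0.43), and the difference of the pair was -0.31 (interval -1.77 to 1.16). Rps27l, a paralog induced by p53, had a mean count of 694 and a log2 fold change of -0.65 (SE 0.36, DESeq2 adjusted p = 0.198). Its core gene Rps27 stood at -0.62 (SE 0.47), a difference of -0.03 (interval -1.65 to 1.60). The intervals of both pairs still hold differences of more than 1 on the log2 scale in either direction, so that similar estimates do not show that paralog and core gene respond alike.

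Rpl7l1, a paralog of Rpl7 that acts in the assembly of the large subunit, had the most precise estimate of the paralogs (-0.24, SE 0.10, unadjusted p = 0.0209, DESeq2 adjusted p = 0.0807, mean count 2211). Rpl7 stood lower with a wide interval (-0.52, SE 0.44), and the difference was 0.28 (interval -0.78 to 1.35). Rpl22l1, the paralog whose RNA is bound and repressed by the protein of Rpl22, had no p in the authors' deposited table although its mean count was 2023. Its log2 fold change was listed as -0.74 (SE 0.53), with implied counts of 2529 in WT and 1517 in the knockout, and is given without a test. Rpl22, which binds RNA at the rim of the exit tunnel, stood at 0.03 (SE 0.25). Rpl22l1 made up 23.9% of the mean count of this pair and, per kilobase of transcript, 53.8% of it, the largest share among the paralogs on that scale.

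The remaining copies are annotated mostly as processed pseudogenes and were low. Rps4l, a copy of Rps4x, had a mean count of 353 and stood at 0.02 (SE 0.28), against -0.12 (SE 0.25) for Rps4x. Rpl37rt had a mean count of 222 and stood at -0.38 (SE 0.36), beside -0.37 (SE 0.30) for Rpl37. Rps3a2 and Rps3a3, copies of Rps3a1, stood at -0.62 (SE 0.35, mean count 48.5) and -0.52 (SE 0.73, mean count 16.8), and Rps3a1 at -0.46 (SE 0.44). Rps27rt stood at -0.14 (SE 0.48, mean count 38.7) and Rpl6l at 0.11 (SE 0.54, mean count 15.4), the latter beside -0.14 (SE 0.11) for Rpl6. Rps12l1, a copy of Rps12, and Rps23rg1, a retrogene derived from Rps23, had mean counts of 0.104 and 0.553 and no adjusted p. Their core genes stood at -0.22 (SE 0.30) and -0.20 (SE 0.28). Rps19bp1 stood at -0.34 (SE 0.14, unadjusted p = 0.0164, DESeq2 adjusted p = 0.0675, mean count 1027). Of the 11 tested paralogs, 7 had an estimate below that of their core gene.

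**Figure D2:**
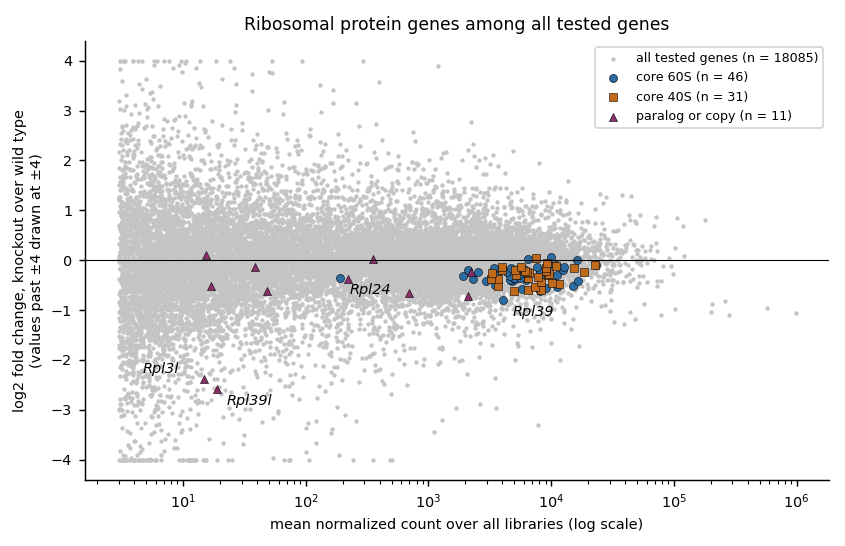
Log2 fold change, knockout over WT, against mean normalized count (log scale) for the 18085 tested genes, with 46 core 60S genes (circles), 31 core 40S genes (squares) and 11 tested paralogs or copies (triangles). The core genes form a tight group just below 0, while Rpl39l and Rpl3l lie far below it at mean counts of 19.0 and 14.7.

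The core genes made up 1.47% of the summed mean counts of the table. Per kilobase of transcript the highest levels were those of Rpl41 (28466), whose product is the smallest ribosomal protein, Rplp1 (25028), Rps15 (19115), Rps2 (16921) and Rps29 (16478). The lowest core level per kilobase was that of Rpl24 (283). Without length scaling, the highest mean counts were those of Rpl4 (23060), Rpsa (22840) and Rps2 (18512). Their log2 fold changes were -0.09 (SE 0.14) for Rpl4, which lines the exit tunnel, -0.09 (SE 0.24) for Rpsa, the laminin receptor protein of the small subunit, and -0.25 (SE 0.20) for Rps2, at the entry of the messenger RNA. The lowest mean counts were those of Rpl24 (191), Rpl23a (1907) and Rpl27 (2113), with log2 fold changes of -0.35 (SE 0.30), -0.31 (SE 0.30) and -0.19 (SE 0.15). For Rpl24, 484 of 1030 exon bases overlap Gm28037 on the same strand, so its level is uncertain.

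Summed over the core genes, the implied counts were 6.36e+05 in WT and 5.27e+05 in the knockout, a log2 ratio of -0.27. As a share of all implied counts this is 1.58% in WT and 1.36% in the knockout. The subunits did not stand apart in their medians. The median log2 fold change was -0.29 for the 46 genes of the large subunit, 43 of them below 0, and -0.25 for the 31 of the small subunit, 30 of them below 0. The median SE was 0.24 for the large and 0.27 for the small subunit.

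**Figure D3:**
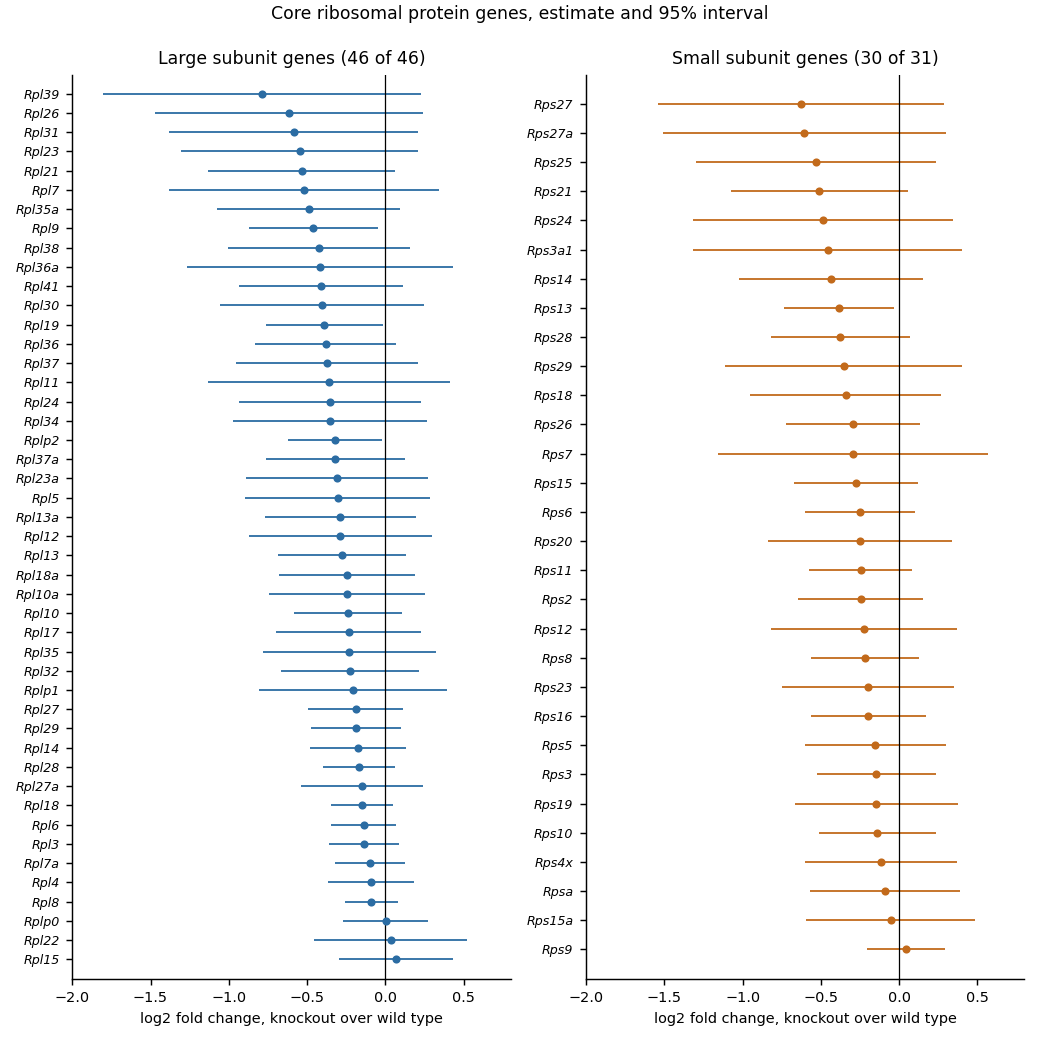
Log2 fold change, knockout over WT, with 95% interval for each core gene, large subunit (n = 46) on the left and small subunit (30 of 31 drawn) on the right, in order of the estimate. Over all 77 core genes, 73 intervals include 0, and the lowest estimates have the widest intervals.

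In the large subunit the smallest p belonged to Rpl9, a protein near the base of the stalk, with an implied count of 8942 in the knockout, 72.7% of that in WT. Its log2 fold change was -0.46 (SE 0.21, unadjusted p = 0.0294, DESeq2 adjusted p = 0.103). Rpl19, at the rim of the exit tunnel and in a bridge between the subunits, stood at -0.39 (SE 0.19, unadjusted p = 0.0413, DESeq2 adjusted p = 0.132). Rplp2, an acidic protein of the P stalk that recruits the elongation factors, stood at -0.32 (SE 0.15, unadjusted p = 0.0351, DESeq2 adjusted p = 0.118). In the small subunit, Rps13 stood at -0.39 (SE 0.18, unadjusted p = 0.032, DESeq2 adjusted p = 0.11), and Rps21 at -0.51 (SE 0.29, DESeq2 adjusted p = 0.203). The implied counts of Rps13 were 4204 in WT and 3217 in the knockout. None of these passed the threshold after adjustment.

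At the other end, Rpl15 stood at 0.07 (SE 0.19), Rps9 at 0.05 (SE 0.13), Rpl22 at 0.03 (SE 0.25), Rplp0 at 0.00 (SE 0.14) and Rps15a at -0.05 (SE 0.28). Rplp0 is the scaffold of the P stalk and is often used as a reference gene. Its interval ran from -0.27 to 0.27, and the core median of -0.28 lies just outside it. Rplp0 was named for its high estimate and is itself part of the core, so a departure from the core is not shown. The P stalk as a group (4 genes) had a median of -0.25 with 3 below 0, and Rplp1 stood at -0.21 (SE 0.31). The 9 genes at the rim of the exit tunnel had a median of -0.31 with 8 below 0, and values from -0.79 (Rpl39) to 0.03 (Rpl22). The pair that carries the 5S RNA, Rpl5 and Rpl11, which also bind the p53 regulator Mdm2, stood at -0.31 (SE 0.30) and -0.36 (SE 0.39). A list of 10 genes mutated in Diamond-Blackfan anaemia had a median of -0.33. The list is not complete, and Rpl15, which has also been reported in that anaemia, is not in it and stood above 0. In each of these groups 0 genes were called by DESeq2, and at an unadjusted p under 0.05 there was 1 in the stalk (Rplp2), 1 at the tunnel (Rpl19) and 0 in the other groups.

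After Rpl39, the lowest estimates in the large subunit were those of Rpl26 (-0.62, SE 0.44), Rpl31 (-0.59, SE 0.41), Rpl23 (-0.55, SE 0.39) and Rpl21 (-0.54, SE 0.30). In the small subunit Rps27, Rps27a (-0.61, SE 0.46) and Rps25 (-0.53, SE 0.39) were among the lowest. The knockout level of these genes was estimated at 64.9% (Rps27) to 69.3% (Rps25) of WT, and each interval included 0. Over the core, 51 of 77 Wald statistics were below -1 and 0 were above 1.

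Among themselves the core genes varied less than the error of a single gene. The SD of the 77 log2 fold changes was 0.17, which is 0.69 of the median SE of 0.25, and the range ran from -0.79 to 0.07. That median SE was nearly double the 0.13 of all tested genes with a mean count of at least 1000. The size of the estimate went with its SE. Across the 77 genes, which share libraries, Pearson's r between log2 fold change and SE was -0.75 and Spearman's rho was -0.71. Over 6799 tested genes of mean count at least 1000 these were -0.17 and -0.11.

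Split by SE, the 26 most precise core genes had a median of -0.17, the 26 in the middle one of -0.28, and the 25 least precise one of -0.43. The most precise estimates were those of Rpl8 (-0.09, SE 0.09), Rpl18 (-0.15, SE 0.10), Rpl6 (-0.14, SE 0.11), Rpl3 (-0.14, SE 0.11) and Rpl7a (-0.10, SE 0.11). The least precise were those of Rpl39, Rps27 and Rps27a. A mean of the core genes weighted by the inverse square of the SE was -0.20. The medians of the most and of the least precise genes thus both lay below 0, at different distances, and Rpl15, Rps9 and Rplp0, which were above 0, were among the most precise. Which libraries make the SE of the least precise genes wide was not tested.

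**Figure D4:**
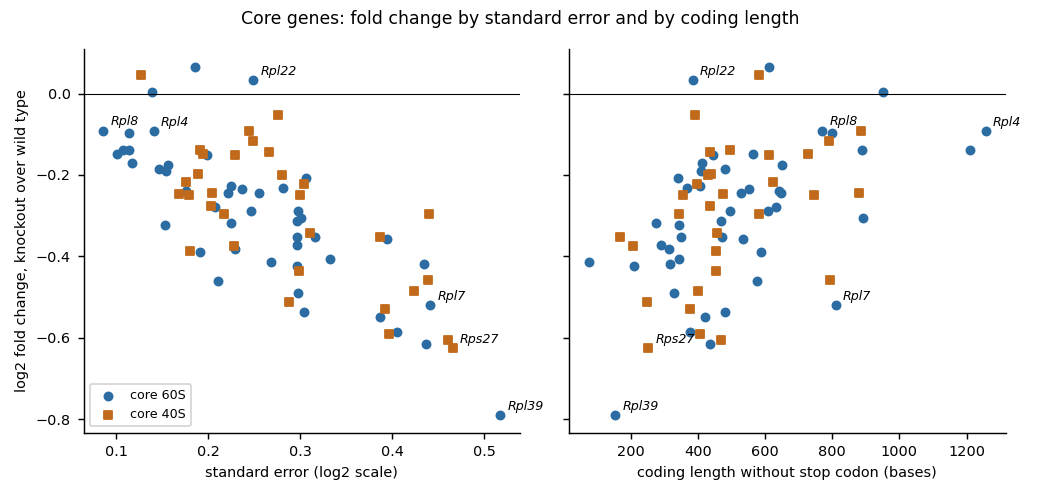
Log2 fold change, knockout over WT, of the 77 core genes against their SE (left) and against coding length in bases (right), circles for 60S and squares for 40S genes. Estimates are lower at higher SE (r = -0.75) and at shorter coding length (r = 0.46).

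Short genes stood lower than long ones. Across the core genes the log2 fold change went with coding length (r = 0.46, rho = 0.48) and little with the GC content of the transcript (r = 0.10, rho = 0.11) or the logarithm of the mean count (r = 0.17, rho = 0.20). The 26 genes of shortest coding sequence (75 to 405 bases) had a median of -0.37, the next 26 one of -0.28, and the 25 longest (582 to 1257 bases) one of -0.18. A relation of the same sign was present over the 6799 genes of mean count at least 1000, which include core genes. There, r with coding length was 0.15 and rho 0.26. Among 2578 tested genes with an exon length of up to 1500 bases the median log2 fold change was -0.25, and among the 24 core genes within them it was -0.34. The part of gene length in the level of the core genes was not tested further.

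A sequence feature was more frequent at the start sites of the members than at all starts, though most member starts lacked it. The letters CTTTCC, a common core of the TOP element, were searched on the sense strand in the 20 bases to either side of each RefSeq start. They were found at 12 of 79 member starts (15.2%, 67 genes) and at 1.95% of 32851 starts of all genes. On the reverse strand they were found at 0 of the 79 and at 1.74% of all. The letters TATAAA, on either strand of the window from 250 bases before to 50 after the start, were found at 8.86% of member starts and 13.6% of all. Windows of 30 bases around the start (GRCm38.p6) are shown for a core gene low in the ranking (Rps27, chr3:90213634-90213663, - strand) and the core gene of the highest estimate (Rpl15, chr14:18270972-18271001, - strand). They are also shown for a called paralog with its core gene (Rpl39l, chr16:10170213-10170242, + strand, and Rpl39, chrX:37085208-37085237, - strand). The start windows of Rpl3l, the other called paralog, lack CTTTCC and are not shown. Capitals mark CTTTCC.

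Rps27: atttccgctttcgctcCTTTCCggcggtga

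Rpl15: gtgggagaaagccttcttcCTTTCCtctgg

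Rpl39l: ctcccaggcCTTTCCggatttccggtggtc

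Rpl39: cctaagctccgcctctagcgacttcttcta

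The feature was present at genes from both ends of the ranking. For the 10 core genes with CTTTCC the median log2 fold change was -0.20 (range -0.62 to 0.07), and for the 47 with a start that lacks these letters it was -0.30 (range -0.79 to 0.05). A match is a description of the letters, and a TOP element can have other letters. The search also took in bases before the start, which are outside a transcript that starts there. In the Rpl39l window the letters lie within the 15 bases before the RefSeq start.

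Most other genes of the pathway were not called, and those that were lay on both sides of 0. Over all tested genes 21.8% were called, and 30.6% of those with a mean count of at least 1000. Of 47 translation factors tested, 4 fell and 3 rose, and the median was -0.10. Eif6, which keeps the subunits apart, fell (-0.37, SE 0.11, adjusted p = 0.00612), as did Eif2b2 (-0.30, SE 0.10) and Eif2b5 (-0.25, SE 0.08), subunits of the exchange factor that recharges eIF2. Eef2k, the kinase that inhibits elongation, rose (0.73, SE 0.11, DESeq2 adjusted p = 5.71e-09), as did the start site factor Eif1ax (0.51, SE 0.12) and Eif4g2 (0.28, SE 0.07). Of 71 ribosome biogenesis genes tested, 3 fell and 2 rose, with a median of -0.08. Those that fell were the helicase gene Ddx47 (-0.34, SE 0.09), Rrp1 (-0.31, SE 0.08) and Sbds (-0.32, SE 0.12), whose product releases Eif6 from the large subunit. Those that rose were Nvl (0.27, SE 0.09), an ATPase of large subunit assembly, and Ubtf (0.37, SE 0.12), a factor of ribosomal RNA transcription. Of 32 genes of mTORC1 control, 1 fell (Rragc, -0.19, SE 0.06, a GTPase that recruits mTORC1 to lysosomes) and 2 rose (Sesn1, 0.65, SE 0.14, a leucine sensor, and Rps6kb1, 0.26, SE 0.09, the kinase of ribosomal protein S6).

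Of ribosomal proteins with names outside the symbol rule, Fau stood at -0.16 (SE 0.14, DESeq2 adjusted p = 0.476) and Rack1 at 0.04 (SE 0.13, DESeq2 adjusted p = 0.853).

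Of the most similar groups of other complexes, the mitochondrial ribosomal protein genes had many calls and the proteasome genes few. Over all tested genes 10.9% were called lower, 11% higher and 21.8% in either direction. Among those with a mean count of at least 1000, 30.6% were called. Of 78 mitochondrial ribosomal protein genes tested, 28 fell and 1 rose, with a median of -0.36 and 76 below 0. Examples are Mrpl49 (-0.49, SE 0.09, DESeq2 adjusted p = 7.95e-07), Mrps2 (-0.35, SE 0.07) and Mrpl17 (-0.59, SE 0.12). Mrps27 rose (0.28, SE 0.10). The median of the cytosolic core genes, -0.28, was not far from this one, but their median SE was 0.25 against 0.15. Of 39 proteasome genes tested, 3 fell and 0 rose, with a median of -0.18. Psmb10, a catalytic subunit of the immunoproteasome, fell by 0.91 on the log2 scale (SE 0.20), and the ATPase subunits Psmc4 (-0.17, SE 0.06) and Psmc5 (-0.20, SE 0.08) also fell. The difference between these groups was not tested.

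**Figure D5:**
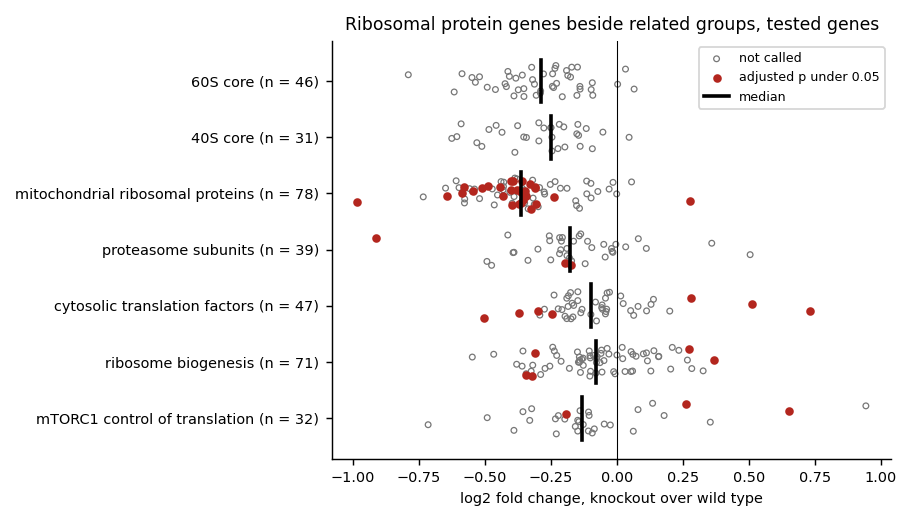
Log2 fold change, knockout over WT, of each tested gene in the core subunits and in 5 related groups, filled where the adjusted p is under 0.05, with the group median as a black bar (vertical spread is only to separate points). No core gene is filled, while 29 of 78 mitochondrial ribosomal protein genes are.

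Markers of other cells moved with genotype. Of 15 microglia markers tested, 7 fell and 0 rose, with a median of -1.91 and implied counts, summed over the tested markers, of 1421 in WT and 612 in the knockout. The defining markers P2ry12 (mean count 1.52) and Tmem119 (1.02) were near 0. Of 12 astrocyte markers 3 rose and 0 fell, with a median of 0.95 and sums of 13512 in WT and 25381 in the knockout. Most of these sums came from 1 marker, with a mean count of 13490 against 19447 summed over the list. Of 10 neuron markers 4 rose and 1 fell (median 0.12, sums 371904 and 423615). Of 10 fibroblast and mural markers 3 fell and 1 rose (median -0.71, 8 below 0, sums 3174 and 2946). Their part in the estimates of the core genes was not tested.

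For Rpl3l, the muscle list is the one to set beside it. Of 22 markers 20 were found in the table, 15 were tested, and 3 fell and 0 rose: Myh8 (-2.19, SE 0.60, mean count 388), Ttn (-0.96, SE 0.34) and Myh4 (-1.61, SE 0.57). Over all tested genes, 10.9% were called lower and 11% higher. The tested muscle markers went both ways, with 10 below 0 and 5 above, a median of -0.58 and values from -2.98 to 2.93. At an unadjusted DESeq2 p under 0.05, 4 were lower and 1 was higher. The sums over the tested markers were 1018 in WT and 479 in the knockout, of which Myh8 alone made up 637 in WT and 139 in the knockout. Ckm (mean count 1.30), Actc1 (1.42) and Myog (2.29) were near 0, and Myod1 and Tnni2 were not analysed here. Their part in the fall of Rpl3l was not tested. For Rpl39l, the list is that of male germ cells, of which 12 of 14 were found in the table and 5 tested. DESeq2 called 0 of the 5, with 1 lower and 2 higher at an unadjusted p under 0.05, and the sums were 189 in WT and 202 in the knockout. The defining markers Prm2 (mean count 0.314), Tnp2 (0.317), Pgk2 (0.367), Acrv1 (0.424), Ldhc (0.537) and Tex101 (0.108) were near 0, and Sycp1 and Tnp1 were not analysed here.

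Pseudogene rows bear on how well the core genes can be counted. The symbol rule leaves out 129 rows with a -ps symbol in the authors' deposited table. Rows without a symbol that the annotation names in this way bring the number to 168, and these had a summed mean count of 0.353% of that of the members. For 53 parent genes with such rows the median was 0.317% of the parent's mean count, 11 exceeded 1%, and the largest was 5.41% for Rpl10a. Of 66 such rows tested, 5 fell and 0 rose, and of the 49 tested under a deposited symbol, 3 fell and 0 rose. Rpl15-ps2, a processed pseudogene at chr9:72060937-72061549 that is named by the annotation only, had a mean count of 73.6 and a log2 fold change of -9.60 (SE 1.56, DESeq2 adjusted p = 5.47e-08), while its parent Rpl15 stood at 0.07 (SE 0.19). A value of that size leaves almost none of the implied count in the knockout. Reads of a pseudogene and its parent can be exchanged in mapping, and how they were assigned is not given in the sources used here.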

How the data were processed

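RNA-seq of polyadenylated RNA from 4 WT and 4 H2BE-KO cultures was prepared with a stranded mRNA kit, per the labels. The submitters' processing notes name the build mm10 and the tools DESeq2 and DESeq. Which aligner and counter were used, whether strand was used, and versions: not given in the sources used here. The signal used is the deposited mean normalized count over libraries, per the file headers. Fold changes and SEs were deposited as log2 values. As a score the authors deposited the Wald statistic, which was checked against the fold change divided by its SE (largest gap 2.86e-07). The deposited adjusted p-value was checked against an adjustment recomputed from the deposited p-values (largest gap 0.757%). No count model was run here. Some items are not reported here. Library depth is unknown, and the mean normalized counts summed to 3.96e+07.

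Of 26229 rows, 18085 had an adjusted p. Another 8135 had a p only, all with a mean count of at most 2.99, and 9 had none. Signs were turned to knockout over WT from H2bc21. If that reading were wrong, every direction would swap. Intervals are 95% normal intervals. Implied counts use groups of 4 and 4.

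Rows were matched to GENCODE M21 (26039 matched), which gave coordinates, lengths and coding sequences. Starts are from RefSeq (GRCm38.p6), with 250 bases before and 50 after each, and 67 members had one. Of the members, 28 overlap another gene on the same strand and 21 on the opposite strand. Coding sequences were aligned with Biopython 1.88. Other steps used Python 3.11.15, numpy 2.4.6, scipy 1.17.1, pandas 2.3.3 and matplotlib 3.10.9. The adjustment of p and the interval of a difference were tested on simulated data, and the other steps were not. The members and lists were chosen with earlier results of these data known.

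Genes named are H2bc21, each called member, each paralog with its core gene, each member without an adjusted p, and, of the core, the 5 smallest p below 0, the 5 highest fold changes and the 3 highest and 3 lowest mean counts. Up to 3 called genes per direction are named in other lists, and -ps rows if called with a mean count of at least 50. The core genes of lowest estimate, of highest level per kilobase and of most and least precision, marker genes and members of small groups were named after their values were seen. Alternatives were other thresholds, no filter or a filter on low counts, a t reference, centring, weighting and other SEs of differences.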

Additional observations from a re-analysis of the deposited data

How the results depend on the processing

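The number of members lower in the knockout was 2 at an adjusted p under 0.05, 1 under 0.01 (Rpl39l) and 5 under 0.1, where Rps19bp1, Rpl36al and Rpl7l1 are added. It was 0 among genes with a mean count of at least 100, which leaves both called paralogs out, and 0 with a t reference of 6 degrees of freedom. Under that reference the log2 fold changes of Rpl39l (-2.58) and Rpl3l (-2.38) had adjusted p of 0.115 and 0.145, against 0.0344 for H2bc21. The Rpl39l minus Rpl39 difference of -1.79 had an interval that excluded 0 when the SEs were taken as independent. When fold changes were centred on the median of all tested genes (-0.02), 1 proteasome gene was lower, not 3. The same centring left 19 mitochondrial ribosomal protein genes lower, not 28. The cause was not tested. For the core genes the count was 0 in both directions under each threshold, filter, reference and centring run. Their median ranged from -0.34 (only those of exon length up to 1500 bases) to -0.25 (centred). Their mean weighted by the inverse square of the SE was -0.20. No paired analysis was possible because the deposited table holds no values per library. For the same reason no library was left out in turn, and no count model was fitted.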
